A study of Mus musculus with 9 samples.

Results

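The miR-10, miR-99/100 and miR-125 families are 7 guide strands in these data: mmu-miR-10a-5p, mmu-miR-10b-5p, mmu-miR-99a-5p, mmu-miR-99b-5p, mmu-miR-100-5p, mmu-miR-125a-5p and mmu-miR-125b-5p, written below without the species prefix. They were taken by name from the rows that the deposited tables class as mature miRNA, 7 of the 1101 mature miRNAs counted in at least 1 library. The list of names sets no cutoff on a measured value, but earlier results of these data were known when the families were chosen. All 7 were counted in each of the 9 libraries, and all 7 passed the filter on low counts, which kept 453 miRNAs. The material was RNA of exosomes, small vesicles shed by cells, which were collected by ultracentrifugation from RAW264.7, one mouse macrophage line, and extracted with Trizol. The groups were vesicles from cells exposed to silica for 48 h, from cells exposed to silica for 24 h, and from untreated cells, with 3 BGISEQ-500 small RNA libraries each. All groups share the cell line and a DMEM medium with 10% fetal bovine serum. The sources used here give neither the silica dose nor the culture time of the untreated cells. The libraries of a group are described as independent repetitions, and the labels give no batch, so p-values measure the spread between such repetitions of 1 line. The question is how the vesicle miRNAs of macrophages differ after silica exposure.

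A miRNA guide strand is loaded into an Argonaute protein and pairs with messenger RNAs mainly through its seed, the short stretch just after its first base, which lowers the output of those messages. The miR-10 genes lie within the Hox gene clusters, and miR-125 is the vertebrate counterpart of lin-4, the founding miRNA of the nematode worm. In vertebrates miR-99 or miR-100 is often encoded in 1 cluster with a let-7 and a miR-125, and miR-99 and miR-100 are known to target the growth kinase mTOR. In mouse macrophages miR-125b is known to act on the transcription factor Irf4, while miR-125a is known to restrain inflammatory activation.

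The mature sequences are shown because the members fall into 3 groups by seed, and because several differ so little that their reads are hard to tell apart. They come from RefSeq annotation of the mouse genome (GRCm38.p6), run 5′ to 3′, and carry the seed, bases 2 to 8, in capitals.
miR-10a-5p: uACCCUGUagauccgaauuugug
miR-10b-5p: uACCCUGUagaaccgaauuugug
miR-99a-5p: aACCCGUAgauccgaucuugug
miR-99b-5p: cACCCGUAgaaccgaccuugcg
miR-100-5p: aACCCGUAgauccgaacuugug
miR-125a-5p: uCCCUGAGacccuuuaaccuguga
miR-125b-5p: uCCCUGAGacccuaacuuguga
Both miR-10 strands share the seed ACCCUGU, both miR-99 strands share ACCCGUA with miR-100-5p, and both miR-125 strands share CCCUGAG. Counting positions from 1 at the 5′ end, miR-10b-5p differs from miR-10a-5p by U12A alone, and miR-100-5p differs from miR-99a-5p by U16A alone. The sequence of miR-99b-5p differs from that of miR-99a-5p at 4 positions (A1C, U11A, U16C and U21C). The miR-125 strands are identical over their first 13 bases. Across families, miR-10a-5p and miR-100-5p share the 11-base run GUAGAUCCGAA, although their seeds differ. The sources used here do not say which miRNA received a read that fits more than 1, so the levels of miR-10b-5p and miR-100-5p, each the scarcer of a pair that differs by 1 base, are uncertain to that extent.

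In the GRCm38 annotation, all of these hairpins are on the plus strand. Mir10a lies at chr11:96317165-96317274 with no other annotated gene over it, and Mir10b at chr2:74726070-74726137 in introns of Hoxd3 and Hoxd4. The other members sit in 3 clusters, each with a let-7 hairpin between a miR-99 or miR-100 and a miR-125. On chromosome 16, Mir99a (chr16:77598936-77599000) and Mirlet7c-1 are 656 bases apart in an intron of the noncoding host gene Mir99ahg, and Mir125b-2 (chr16:77646273-77646343) follows in an intron of the same gene, the cluster spanning 47408 bases. On chromosome 17, Mir99b (chr17:17830188-17830257), Mirlet7e and Mir125a (chr17:17830812-17830879) lie within 692 bases in Spaca6, Mir99b in an intron and Mir125a in exonic sequence. On chromosome 9, Mir100 (chr9:41531425-41531504), Mirlet7a-2 and Mir125b-1 (chr9:41581926-41582002) span 50578 bases in introns of the noncoding genes 3110039I08Rik and Gm49317. Mature miR-125b-5p is the same from Mir125b-1 and Mir125b-2, so its level is the sum of both hairpins. The Mir99a hairpin, the source of the most abundant member, is shown with the 5p and then the 3p strand in capitals.
Mir99a: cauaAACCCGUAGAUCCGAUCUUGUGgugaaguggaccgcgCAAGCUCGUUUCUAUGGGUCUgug

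The tables held 2158418 to 8331451 counts of mature miRNA per library. Library 3 of the 24 h group was the shallowest, and its mature share of counted reads was 28.0%, against 35.1% to 44.7% in the others. In the scaled levels used below (CPM), it had the highest level within its group of all 7 members. Library 2 of the 48 h group had the lowest level within its group of all 7. Per 1e6 counted reads of all RNA classes, 24 h library 3 was instead lowest in its group for miR-125b-5p (671.74, against 869.5 and 1018.03). On that scale 48 h library 2 was not the lowest for miR-10a-5p, miR-10b-5p or miR-99a-5p. Across the tested miRNAs, 48 h library 2 and untreated library 2 were the most alike of all library pairs (r = 0.969, computed across miRNAs, and miRNAs are no independent replicates), although they belong to different groups. Summed levels of 8 macrophage miRNAs were 86045 to 108550 CPM (counts per 1e6 mature miRNA counts, after TMM scaling) at 48 h, 71502 to 84177 CPM at 24 h and 75738 to 105760 CPM in untreated vesicles, with miR-511-3p at 0 in 5 libraries. Most of this sum was miR-146a-5p (19539 to 71185 CPM over the 9 libraries) and miR-21a-5p (24383 to 67897 CPM). The others were scarce, at most 1319 CPM (miR-342-3p), with miR-223-3p at 44.7 to 184 CPM and miR-142a-3p at 14.5 to 241 CPM. Summed levels of 5 serum, liver and erythroid miRNAs were 1198 to 1727 CPM at 48 h, 2135 to 5645 CPM at 24 h and 407 to 1861 CPM in untreated vesicles, so this sum was higher at 24 h than in both other groups. Most of it was miR-122-5p and miR-451a. For miR-451a the 24 h libraries (872 to 3380 CPM) lay above the untreated ones (148 to 630 CPM). The groups overlapped for miR-122-5p, with 1253 to 2257 CPM at 24 h and 255 to 1296 CPM in untreated vesicles. They also overlapped for the scarce miR-486a-5p, with 5.14 to 7.26 CPM at 24 h and 2.73 to 10.1 CPM in untreated vesicles. Summed levels of 6 mesenchymal and endothelial miRNAs were 523 to 1022 CPM at 48 h, 614 to 1599 CPM at 24 h and 408 to 2240.3 CPM in untreated vesicles, with miR-145a-5p at 0 in all untreated libraries. All 8 macrophage miRNAs were counted, and of the 7, 4 and 5 miRNAs tested from the 3 lists, 0 passed the threshold in any comparison. The part of these lists and libraries in the results below was not tested beyond the values without a library that are given. In such bulk RNA, fewer vesicles of a kind and less of a miRNA per vesicle cannot be told apart.

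The members' levels spanned from several percent of all mature miRNA to a few CPM. Averaged over the 9 libraries, miR-99a-5p stood at 79932 CPM and ranked 2 among mature miRNAs, miR-99b-5p at 4602 CPM, miR-125b-5p at 2555 CPM, miR-10a-5p at 2255 CPM, miR-125a-5p at 472 CPM, miR-100-5p at 311 CPM and miR-10b-5p at 14.5 CPM. The first step of this order and the last were clear of the spread, since the library ranges of miR-99a-5p and miR-99b-5p did not overlap, nor did those of miR-100-5p and miR-10b-5p. The neighbours miR-125b-5p and miR-10a-5p were not separated, with miR-125b-5p the higher in 7 of 9 libraries. Likewise miR-125a-5p was above miR-100-5p in 7 of 9 libraries. In the other 4 neighbouring pairs, the first was the higher in 9 of 9 libraries, although the ranges of miR-99b-5p and miR-125b-5p overlapped, as did those of miR-10a-5p and miR-125a-5p. The abundance order did not follow the seed groups: miR-99a-5p held 85.9% to 93.0% of the members' counts, while miR-100-5p, with the same seed and 1 base different, held 0.186% to 0.562%.

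**Figure D1:**
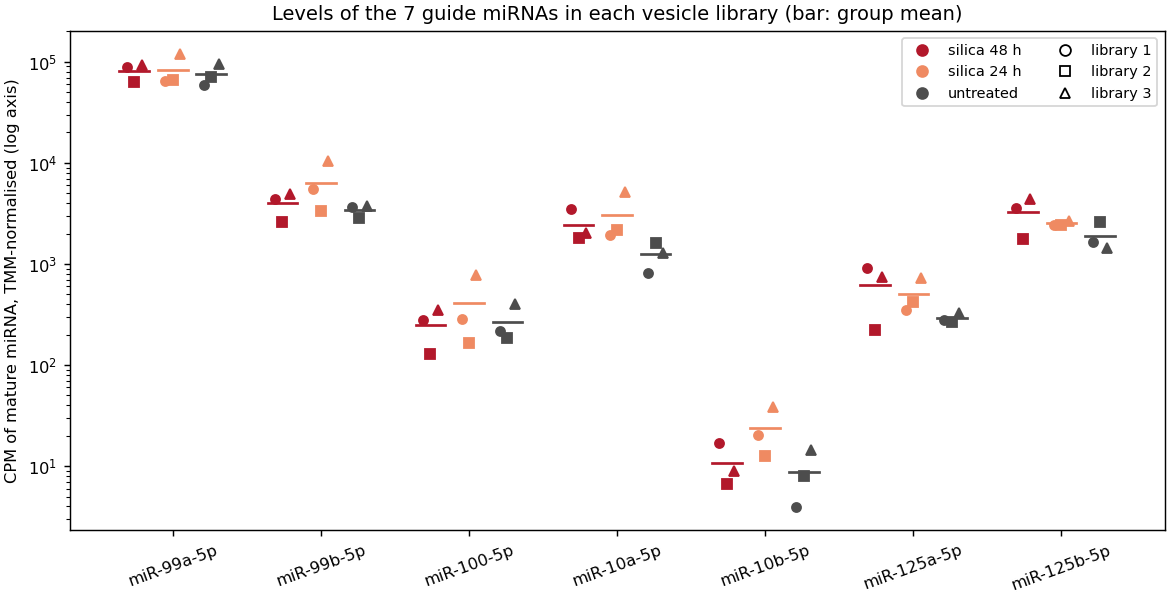
Level of each guide miRNA in CPM of mature miRNA on a log axis, 1 point per library, with 48 h left of 24 h left of untreated, marker shapes for library 1, 2 and 3 and a bar at each group mean. The members span from miR-99a-5p at a mean of 79932 CPM to miR-10b-5p at a mean of 14.5 CPM. The silica groups of miR-10a-5p separate from the same untreated libraries at both times, as 10.4% of all tested miRNAs did upward at 24 h and 2.21% at 48 h.

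None of the 7 members passed the threshold of 0.05 in any comparison (edgeR's quasi-likelihood test in 1 fit over the 9 libraries, Benjamini-Hochberg adjustment over all 453 tested miRNAs). The background was the same: 0% of all tested miRNAs were called in each of the 3 comparisons. At an unadjusted p under 0.05, 4 miRNAs (0.883%) stood out at 48 h against untreated, 46 (10.2%) at 24 h against untreated and 44 (9.71%) at 48 h against 24 h. Of these, 1 was a member, miR-10a-5p at 24 h against untreated. The DESeq2 test called 1, 4 and 6 miRNAs in the same 3 comparisons, limma-voom called 0 in each, and neither called a member. A replicate block in the edgeR fit gave 3 calls at 24 h against untreated, of which 0 were members.

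The miR-10 pair comes first because it holds miR-10a-5p, the member whose silica libraries lay apart from untreated at both times. Both comparisons use the same untreated libraries. Among all 453 tested miRNAs, 10.4% lay apart and higher at 24 h and 2.21% at 48 h, and how many did so at both times was not counted. Levels of miR-10a-5p, encoded in the Hoxb cluster, were 3484, 1823 and 2025 CPM at 48 h, 1956, 2148 and 5121 CPM at 24 h, and 817, 1631 and 1291 CPM in untreated vesicles. Every silica library lay above every untreated one, by a narrow margin between 48 h library 2 and untreated library 2. The group means were 2444 ± 906, 3075 ± 1775 and 1247 ± 409 CPM at 48 h, at 24 h and in untreated vesicles (SD, n = 3 each). The log2 fold change was 1.30 ± 0.54 (SE) at 24 h against untreated, with a 95% interval of 0.12 to 2.49 and an adjusted p of 0.437 by edgeR's quasi-likelihood test. It was 0.97 ± 0.54 at 48 h against untreated, with an interval of -0.20 to 2.15 and an adjusted p of 0.997 by the same edgeR test, and it was 0.63 without untreated library 1. Without 24 h library 3, the value at 24 h was 0.70, and over all alternatives its edgeR, DESeq2 or limma adjusted p ranged between 0.194 and 0.900. The groups stayed apart on the deposited scale too, reads per 1e6 counted reads of all RNA classes (RPM), where miR-10a-5p had 1053.55, 932.53 and 767.21 RPM at 48 h, 694.36, 899.2 and 1281.84 RPM at 24 h, and 290.24, 664.58 and 506.52 RPM in untreated vesicles. Its groups overlapped at 48 h against 24 h, with a log2 fold change of -0.33 ± 0.53.

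Separation of groups without overlap was found for 2 of the 7 members at 24 h against untreated, miR-10a-5p and miR-125a-5p, both with the silica libraries higher. Among all 453 tested miRNAs, 10.4% had the 24 h libraries higher without overlap and 6.18% lower, 16.6% in either direction. Of the 7, 1 was apart at 48 h against untreated, miR-10a-5p, against 2.21% of all tested miRNAs apart and higher and 1.55% apart and lower, 3.75% in either direction. Of the 7, 0 were apart at 48 h against 24 h, against 20.8% of all tested miRNAs, 10.4% in each direction. These shares are for CPM. On the deposited RPM scale, miR-10b-5p was apart and lower at 48 h against 24 h, with 5.07, 3.43 and 3.4 RPM at 48 h and 7.25, 5.27 and 9.73 RPM at 24 h. How many of all miRNAs lay apart on the RPM scale was not counted, for this comparison or for those of miR-10a-5p above.

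Levels of miR-10b-5p, from within Hoxd3 and Hoxd4, were 16.8, 6.71 and 8.99 CPM at 48 h, 20.4, 12.6 and 38.9 CPM at 24 h, and 3.91, 8.03 and 14.5 CPM in untreated vesicles. These rest on 21 to 79 counts per library, and the lowest, 21 counts in untreated library 1, has a 95% Poisson interval of 13.0 to 32.1 counts. Such intervals cover counting error only. Library 2 of the 24 h group lay below untreated library 3, so the groups overlapped. The log2 fold change was 1.43 ± 0.73 at 24 h against untreated (edgeR adjusted p = 0.543), 0.29 ± 0.72 at 48 h against untreated (edgeR adjusted p = 0.997) and -1.14 ± 0.73 at 48 h against 24 h (edgeR adjusted p = 0.556). Without 24 h library 3 the value at 24 h was 0.90, and the value at 48 h against 24 h was -0.69.

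Within libraries, counts of miR-10a-5p exceeded those of miR-10b-5p by 206-fold, 270-fold and 223-fold at 48 h, by 95.2-fold, 169-fold and 131-fold at 24 h, and by 204-fold, 201-fold and 88.2-fold in untreated vesicles. All 3 libraries at 48 h lay above all others, the lowest of them only just above untreated library 1. On the log2 scale the ratio averaged 7.85 ± 0.20 at 48 h, 7.0 ± 0.42 at 24 h and 7.26 ± 0.69 in untreated vesicles (SD, n = 3 each). The two-sided exact permutation test gave p = 0.1 for 48 h against 24 h and for 48 h against untreated, the smallest p that 3 against 3 allows. The log2 difference at 48 h against untreated was 0.59, and 0.19 without untreated library 3, the lowest of its group. Adjusted over the 24 ratio tests made (8 ratios in 3 comparisons), this exact test gave 0.686.

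Among the strands with the seed ACCCGUA, miR-99a-5p had the smallest spread between libraries. Its levels were 88126, 62688 and 93073 CPM at 48 h, 64571, 65387 and 119782 CPM at 24 h, and 58962, 70971 and 95827 CPM in untreated vesicles. The 3 groups overlapped throughout, with means of 81296 ± 16303 CPM at 48 h, 83247 ± 31643 CPM at 24 h and 75253 ± 18802 CPM in untreated vesicles (SD, n = 3 each). The log2 fold change was 0.11 ± 0.35 at 48 h against untreated, with a 95% interval of -0.65 to 0.88, and 0.15 ± 0.35 at 24 h against untreated, with an interval of -0.62 to 0.91. The value at 24 h was -0.12 when scaled to all counted reads. Over the 9 libraries the SD of its log2 CPM was 0.35, against a median of 1.05 over all tested miRNAs and 0.73 over the 143 tested miRNAs that averaged at least 100 CPM. The other members ran from 0.52 for miR-125b-5p to 0.93 for miR-10b-5p on this measure.

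Levels of miR-99b-5p, from the Spaca6 cluster, were 4405, 2600.4 and 4961 CPM at 48 h, 5484, 3338 and 10353 CPM at 24 h, and 3678, 2849.7 and 3753 CPM in untreated vesicles. Libraries 1 and 3 of the 24 h group lay above all libraries of the other groups, while 24 h library 2 lay inside the untreated range. The log2 fold change was 0.90 ± 0.49 at 24 h against untreated (edgeR adjusted p = 0.543), and 0.35 without 24 h library 3. It was 0.22 ± 0.49 at 48 h against untreated (edgeR adjusted p = 0.997) and -0.68 ± 0.49 at 48 h against 24 h (edgeR adjusted p = 0.592). The last value was -0.19 without 24 h library 3.

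Levels of miR-100-5p were 278, 128 and 348 CPM at 48 h, 285, 167 and 783 CPM at 24 h, and 217, 184 and 404 CPM in untreated vesicles. The groups overlapped, and 24 h library 3 was again the highest of the 9. At 24 h against untreated the log2 fold change was 0.62 ± 0.68 (edgeR adjusted p = 0.760), and -0.25 without 24 h library 3. At 48 h it was -0.09 ± 0.68 against untreated and -0.71 ± 0.68 against 24 h, where it was 0.10 without 24 h library 3. The level of miR-100-5p went with that of miR-99b-5p more closely than with any other member: the SD of their log2 ratio over the 9 libraries was 0.36, against 0.50 for miR-100-5p with miR-99a-5p, its nearest relative in sequence. This ratio within a library needs no scaling, and the likeness is a description over 9 libraries that was not tested.

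**Figure D2:**
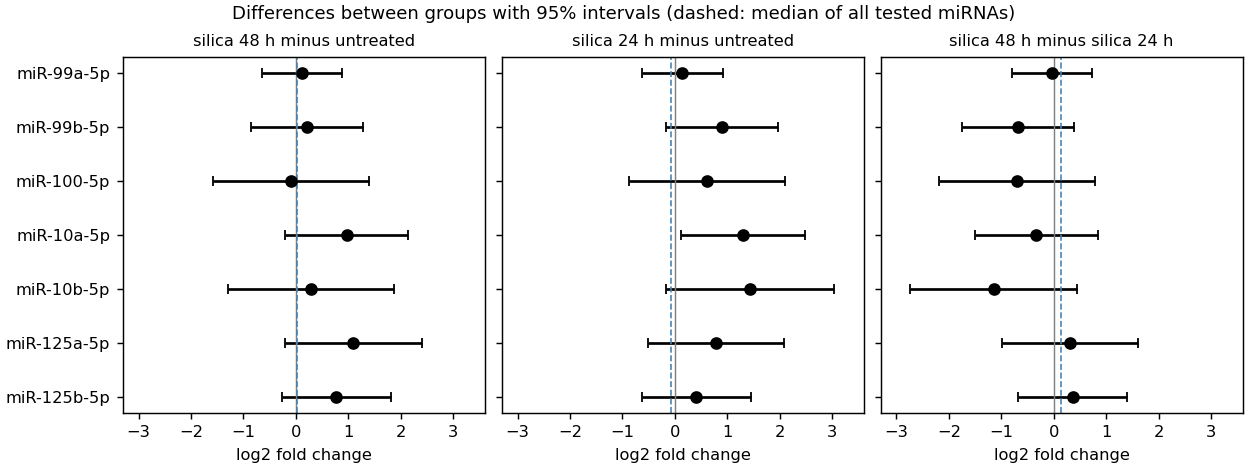
Log2 fold change of each guide miRNA with its 95% interval in 3 panels, 48 h minus untreated, 24 h minus untreated and 48 h minus 24 h, with a dashed line at the median of all tested miRNAs. The interval of miR-10a-5p at 24 h (0.12 to 2.49) is clear of 0, while its adjusted p is 0.437, and all other intervals include 0.

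The miR-125 strands are ordered here from the scarcer to the more abundant. Levels of miR-125a-5p were 904, 224 and 740.4 CPM at 48 h, 353, 423 and 729 CPM at 24 h, and 282, 268 and 325 CPM in untreated vesicles. The 24 h libraries all lay above the untreated ones, whereas 48 h library 2 was the lowest of the 9 libraries and the other 48 h libraries were the highest. The log2 fold change was 0.78 ± 0.60 at 24 h against untreated (edgeR adjusted p = 0.654) and 1.10 ± 0.60 at 48 h against untreated (edgeR adjusted p = 0.997). Without 24 h library 3 the value at 24 h was 0.40. The value at 48 h was 0.74 without 48 h library 1 and 1.48 without 48 h library 2. On the deposited RPM scale, its 24 h and untreated groups overlapped, with 125.51 to 182.56 RPM at 24 h and 100.01 to 127.3 RPM in untreated vesicles.

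Levels of miR-125b-5p, which has 2 source hairpins, were 3542, 1753 and 4442 CPM at 48 h, 2449, 2432 and 2684 CPM at 24 h, and 1661, 2605 and 1428 CPM in untreated vesicles. Library 2 of the 48 h group lay below untreated library 2, which was inside the 24 h range, and all silica libraries lay above each of the remaining untreated ones. The log2 fold change was 0.77 ± 0.48 at 48 h against untreated (edgeR adjusted p = 0.997), and 1.36 without both 48 h library 2 and untreated library 2, where the adjusted p was 1 and over all alternatives 0.752 to 1. Without 48 h library 3 it was 0.35. At 24 h against untreated it was 0.41 ± 0.47 (edgeR adjusted p = 0.789), and 0.72 without the same libraries, 0.74 without untreated library 2 and 0.16 without untreated library 3. It was 0.36 ± 0.47 at 48 h against 24 h (edgeR adjusted p = 0.769), beside 0.31 ± 0.59 for miR-125a-5p (edgeR adjusted p = 0.820). With each library left out in turn, these values ran from 0.022 without 48 h library 3 to 0.65 without 48 h library 2 for miR-125b-5p, and from 0.025 without 48 h library 1 to 0.71 without 48 h library 2 for miR-125a-5p. For miR-125a-5p, leaving out 24 h library 1 or 48 h library 3 also gave low values, 0.099 and 0.095, and leaving out 24 h library 3 gave 0.60.

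Set side by side, 6 of the 7 members had a positive log2 fold change at 48 h against untreated, 7 of 7 at 24 h against untreated and 2 of 7 at 48 h against 24 h. Among all tested miRNAs these shares were 52.5%, 46.6% and 54.1%. The members' median was 0.29, 0.78 and -0.33 in the same 3 comparisons, beside 0.03, -0.07 and 0.14 for all tested miRNAs. The count at 24 h was 6 of 7 when scaled to all counted reads or without untreated library 1, and 5 of 7 without 24 h library 3, where the members' median was 0.35. At 48 h against untreated the count was 4 of 7 without untreated library 1 or without 48 h library 3, and the median ran from 0.17 without 48 h library 1 to 0.52 without 48 h library 2. Library 3 of the 24 h group also moved the median at 48 h against 24 h, which was 0.19 without it, with 5 of 7 members positive. The comparisons share libraries and are not independent of each other.

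As a share of all mature counts, the 7 members together took 8.35%, 7.93% and 10.5% at 48 h, 7.25%, 8.35% and 12.5% at 24 h, and 6.17%, 9.12% and 10.3% in untreated vesicles. The groups overlapped, averaging 8.91 ± 1.35% at 48 h, 9.36 ± 2.75% at 24 h and 8.52 ± 2.12% in untreated vesicles (SD, n = 3 each). Two-sided exact permutation tests gave p = 0.9 for 48 h against untreated, p = 0.7 for 24 h against untreated and p = 0.9 for 48 h against 24 h, where the smallest possible is 0.1. The level of the sum is mostly miR-99a-5p, but its differences between group means came in larger part from the scarcer members. Without miR-99a-5p, the difference was 0.507 percentage points at 24 h against untreated, beside 0.834 with it. At 48 h it was 0.271 beside 0.391 points against untreated, and -0.235 beside -0.444 points against 24 h. Of the members' own counts, miR-10a-5p took 1.92% to 3.46% at 48 h, 2.60% to 3.67% at 24 h and 1.25% to 2.08% in untreated vesicles. Its 24 h libraries lay above the untreated ones, and its 48 h range overlapped with the untreated one. The share of miR-99a-5p was lower without overlap at 24 h, 85.9% to 88.5% against 89.9% to 93.0% in untreated vesicles. Those of miR-125a-5p (0.471% to 0.572% against 0.315% to 0.429%) and miR-10b-5p (0.0170% to 0.0279% against 0.00596% to 0.0141%) were higher without overlap. These are shares of 1 sum and are not independent.

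**Figure D3:**
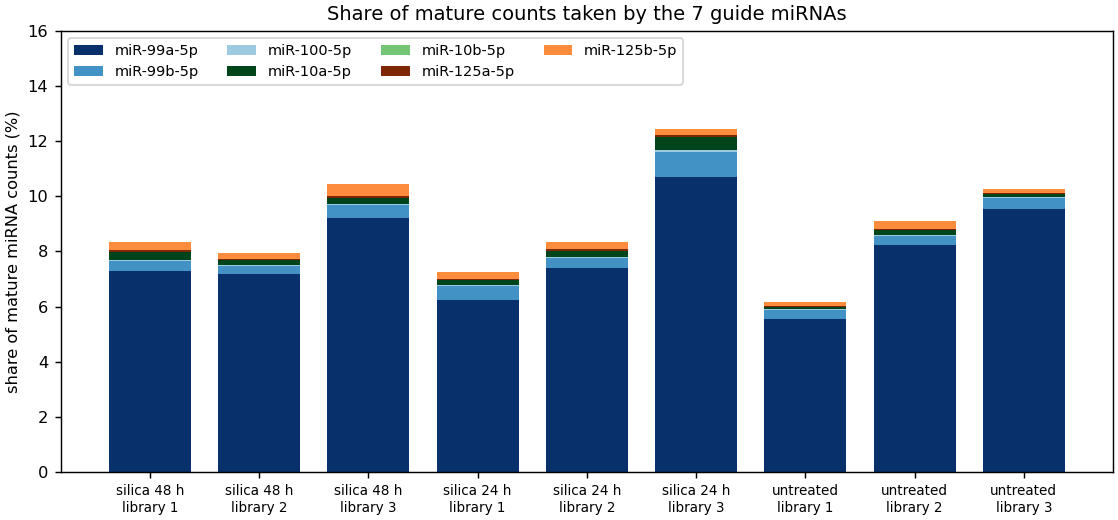
Stacked bars of the percent of mature miRNA counts taken by each guide miRNA, 1 bar per library, 48 h left of 24 h left of untreated. Most of each bar is miR-99a-5p, and the totals run from 6.17% in untreated library 1 to 12.5% in 24 h library 3.

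Members encoded in 1 cluster were compared through their count ratio within each library, which needs no scaling between libraries. The ratio of miR-99b-5p to let-7e-5p, whose hairpins are 94 bases apart, was 5.0, 4.69 and 7.16 at 48 h, 21.1, 4.71 and 15.4 at 24 h, and 5.31, 6.72 and 6.04 in untreated vesicles. Libraries 1 and 3 of the 24 h group were high, and 24 h library 2 was among the lowest of the 9. The ratio of miR-99b-5p to miR-125a-5p, 554 bases apart, was 4.87, 11.6 and 6.70 at 48 h, 15.5, 7.90 and 14.2 at 24 h, and 13.1, 10.6 and 11.6 in untreated vesicles, and the groups overlapped.

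On chromosome 16, miR-99a-5p had 0.605, 1.15 and 0.930 counts per count of let-7c-5p at 48 h, 0.436, 0.553 and 0.776 at 24 h, and 0.598, 1.53 and 1.15 in untreated vesicles. The let-7c-5p strand, another abundant miRNA in these vesicles, had 145774, 54555 and 100069 CPM at 48 h, 148035, 118342 and 154406 CPM at 24 h, and 98607, 46519.5 and 83564 CPM in untreated vesicles. Its 24 h libraries all lay above its untreated ones, with a log2 fold change of 0.88 ± 0.40 (edgeR adjusted p = 0.482), whereas the groups of miR-99a-5p overlapped. The same mature let-7c-5p can also come from hairpins elsewhere in the genome, as can let-7a-5p. Of the 6 let-7 strands listed as cluster partners, 5 were tested, and 0 passed the threshold in any comparison.

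On chromosome 9, miR-100-5p had 0.0786, 0.0733 and 0.0785 counts per count of miR-125b-5p at 48 h, 0.116, 0.0685 and 0.292 at 24 h, and 0.131, 0.0705 and 0.283 in untreated vesicles. The 48 h libraries were close together, while library 3 was high and library 2 low at 24 h and in untreated vesicles alike. On the log2 scale the ratio averaged -3.70 ± 0.06 at 48 h, -2.92 ± 1.06 at 24 h and -2.86 ± 1.00 in untreated vesicles (SD, n = 3 each). The 48 h values lay inside the range of both other groups, and the two-sided exact permutation test gave p = 0.4 for 48 h against either group, 0.738 adjusted over the 24 ratio tests. Since miR-125b-5p has a second hairpin on chromosome 16, this is not the ratio of 1 transcript's products.

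Of the 24 ratio comparisons, the groups did not overlap in 2, both of them the ratio of miR-10a-5p to miR-10b-5p described above. The ratio of miR-99a-5p to miR-100-5p ran from 153 to 488 over the libraries, that of miR-99a-5p to miR-99b-5p from 11.6 to 25.5, and that of miR-125a-5p to miR-125b-5p from 0.103 to 0.272. The groups overlapped in each. Among these paralogue pairs, the ratio of miR-99a-5p to miR-99b-5p varied least, 2.21-fold between its lowest library and its highest.

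**Figure D4:**
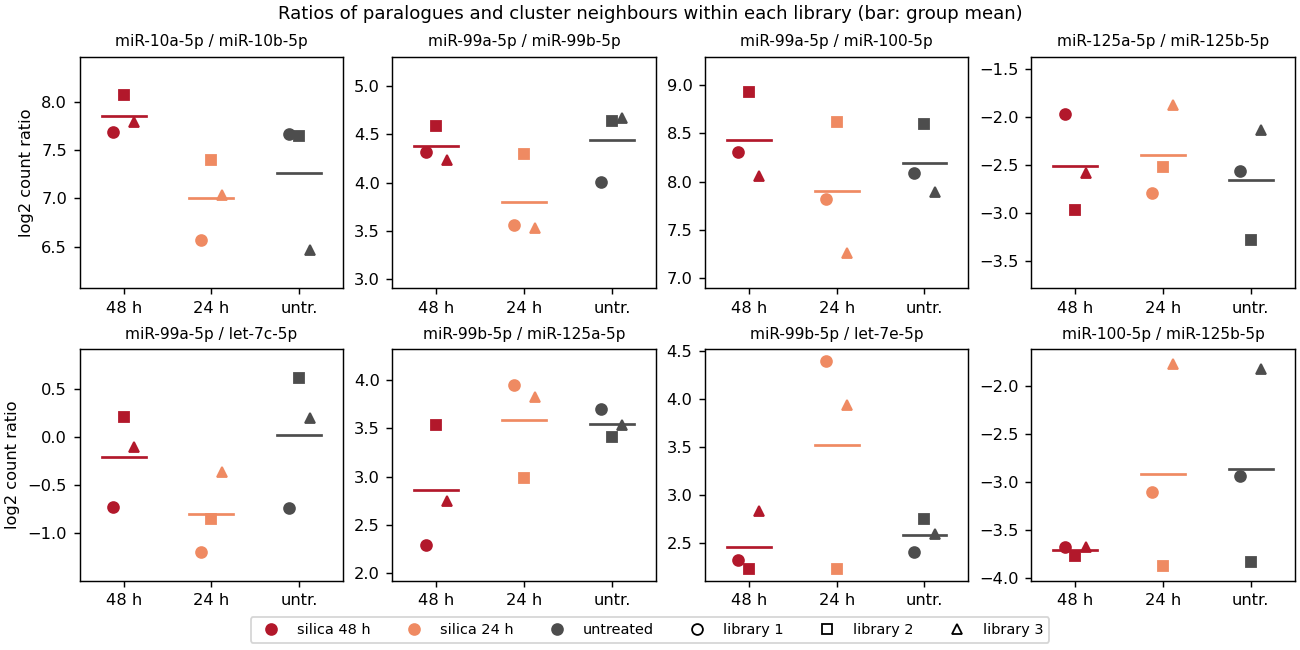
Log2 count ratio of each of 8 pairs, paralogues and cluster neighbours, 1 point per library, with 48 h left of 24 h left of untreated, circle, square and triangle for library 1, 2 and 3, and a bar at the group mean. Each panel spans the same height; the 48 h libraries of miR-10a-5p over miR-10b-5p (mean 7.85) are the only ones clear of both other groups.

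The opposite arms of the same hairpins show how far the 5p strand dominates. Of the 8 listed 3p strands, 7 were counted and tested and 0 passed the threshold in any comparison. The other, miR-10b-3p, had 0 counts in all libraries, where a count of 0 allows up to 3 counts per library. The 3p share of the counts of both arms had a median over the 9 libraries of 0.0377% for Mir99a, 1.92% for Mir100, 2.40% for Mir10a, 7.16% for the Mir125b hairpins together, 9.31% for Mir99b and 13.1% for Mir125a.

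In Mir99a the 3p share was 0.391% in 48 h library 2 (95% exact binomial interval 0.375% to 0.407%) and 0.326% in untreated library 2 (0.309% to 0.343%), against 0.0192% to 0.0676% in the other libraries. The same libraries were high for Mir125a, with 45.8% in 48 h library 2 (44.3% to 47.4%) and 42.2% in untreated library 2 (40.3% to 44.1%), against 4.16% to 19.2% elsewhere. For Mir10a they had 6.10% (5.76% to 6.45%) and 5.52% (5.08% to 5.98%), against at most 2.72% elsewhere. In the remaining hairpins these libraries were not both the highest. The 3p share was highest in 24 h library 2 for Mir99b (14.0%) and in untreated library 1 for Mir100 (3.80%). For the Mir125b hairpins, 48 h library 2 was highest (17.4%), but untreated library 3 (15.4%) exceeded untreated library 2 (9.66%). Library 2 of the 48 h group and untreated library 2 were the most alike over all miRNAs, and they belong to different groups.

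The Mir10a 3p share was 1.76%, 6.10% and 2.72% at 48 h, 1.16%, 1.47% and 0.753% at 24 h, and 2.55%, 5.52% and 2.40% in untreated vesicles. The 24 h libraries were all below the libraries of both other groups, while miR-10a-5p itself was above untreated at 24 h. The level of miR-10a-3p was 62.4, 118 and 56.7 CPM at 48 h, 23.0, 32.0 and 38.9 CPM at 24 h, and 21.4, 95.3 and 31.8 CPM in untreated vesicles. Its groups did not overlap at 48 h against 24 h, with a log2 fold change of 1.34 ± 0.66 (edgeR adjusted p = 0.458), whereas its 5p partner stood at -0.33 ± 0.53. It was the 1 of 7 tested 3p strands apart in that comparison, beside 20.8% of all tested miRNAs, of which 10.4% were apart and higher and 10.4% apart and lower. The difference between the arms was not tested.

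The 3p arms of miR-125b also tell its source hairpins apart. The strand from Mir125b-2, in the Mir99a cluster, held 71.9 ± 16.1% of the miR-125b 3p counts at 48 h, 61.8 ± 14.3% at 24 h and 69.3 ± 19.2% in untreated vesicles (SD, n = 3 each), the rest coming from Mir125b-1 in the Mir100 cluster. Over single libraries this share ran from 46.0% to 89.9%. The groups overlapped, and the shares describe the 3p strands alone.

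**Figure D5:**
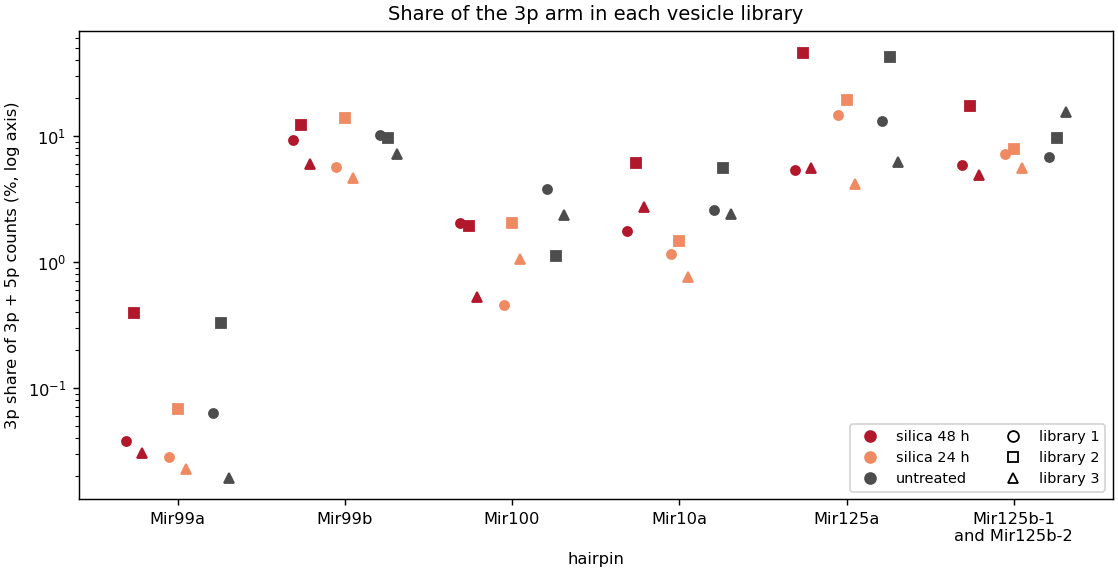
Percent of the counts of both arms that came from the 3p arm of each hairpin, on a log axis, 1 point per library, with 48 h left of 24 h left of untreated and marker shapes for library 1, 2 and 3. Library 2 of the 48 h and untreated groups is highest for Mir99a (0.391% and 0.326%), Mir10a and Mir125a, and Mir10b is left out because its 3p strand had 0 counts.

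Among the 137 other miRNAs that averaged at least 100 CPM, those whose level went most closely with each member were named by the SD of the log2 ratio over the 9 libraries. For miR-99a-5p they were miR-128-3p (SD 0.29) and miR-192-5p (0.30), against a median of 0.88 over all candidates. For miR-99b-5p they were miR-222-3p (0.31) and miR-92a-3p (0.33), and these were nearest to miR-100-5p too (0.54 and 0.55). For miR-125b-5p they were miR-181a-5p (0.42) and miR-423-3p (0.45), and for miR-125a-5p miR-181a-5p (0.47) and let-7b-5p (0.52). For miR-10a-5p they were miR-328-3p (0.50) and miR-484 (0.53), and miR-484 was also the nearest to miR-10b-5p (0.55). The likeness was least close for the scarce miR-10b-5p, whose second, let-7c-5p, had an SD of 0.74.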

How the data were processed

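The authors' deposited tables give, per the file headers, whole-number read counts per small RNA for each library and a second column that the headers call TPM. The authors' deposited RPM values are that column, which equals the count over all counted reads, times 1e6, within 0.005. Trim Galore, Bowtie, HTSeq and mm10 are named in the submitters' processing notes, with no versions. Groups come from the labels. The members are a list of names with no cutoff on a measured value, but they, the other lists and the tests were chosen with earlier results of these data known. Unlisted miRNAs count as 0. Mature counts were filtered with filterByExpr (minimum count 10), which kept 453 of 1101, scaled with TMM factors of 0.829 to 1.16, and put to edgeR's quasi-likelihood test (edgeR 4.0.16, limma 3.58.1, R 4.3.3) in one fit of 9 libraries, with Benjamini-Hochberg adjustment over all 453 and a threshold of 0.05. The script was tested on simulated data. Ratios used counts plus 0.5. Per-library values had two-sided exact permutation tests. DESeq2 1.42.0, limma-voom, other scalings, filters, a replicate block and left-out libraries were alternatives.

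The text names the 7 members, the listed 3p arms and let-7 partners, the marker lists, and the 2 nearest miRNAs to each member. The labels number the libraries of each group 1 to 3. Deviations from the group means correlated between same-numbered libraries by 0.152, 0.636 and 0.315 for 48 h with untreated. For 24 h with untreated they correlated by 0.136, 0.439 and 0.149. By a minimum of 0.1 the numbers may pair those groups, but library 1 of 48 h and library 1 of 24 h correlated by -0.0679. Some differently numbered libraries passed 0.1 too. Untreated library 1 correlated by 0.360 with 48 h library 3 and by 0.160 with 24 h library 3, and untreated library 3 by 0.101 with 24 h library 1. The remaining differently numbered libraries correlated with untreated ones by -0.532 to 0.0258. The main fit and the exact permutation tests used no pairing, so their p-values and SEs ignore any that exists. Among the alternatives, only the replicate block used the numbers as pairs. Depth was 2158418 to 8331451 mature counts per library, and counting error is widest for miR-10b-5p, with 21 to 79 counts. Sequences and positions come from RefSeq and from the GRCm38 annotation, and all 7 members matched.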

Additional observations from a re-analysis of the deposited data

How the results depend on the processing

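No member passed the threshold under any alternative run in any of the 3 comparisons. The count of calls among all tested miRNAs, 0 in each comparison, was at 24 h against untreated 1 with upper-quartile factors, 7 with no filter, 4 with DESeq2 and 1 with those groups alone in the fit; it was 1 with no filter and 1 with DESeq2 at 48 h against untreated, and 16 with no filter and 6 with DESeq2 at 48 h against 24 h. With the replicate block it was 3 at 24 h against untreated and 3 at 48 h against 24 h, where same-numbered libraries correlated by -0.0679, 0.289 and 0.253, and the block changed no other call. Leaving out 1 library gave 0 to 1 calls at 24 h against untreated and at 48 h against 24 h. Scaling to all counted reads turned the log2 fold change of miR-99a-5p to -0.12 at 24 h against untreated and 0.23 at 48 h against 24 h, and the difference in summed share to -0.106 and 0.445 percentage points in those comparisons. It moved the median of all tested miRNAs by 0.106 at 48 h against untreated, -0.138 at 24 h against untreated and 0.226 at 48 h against 24 h, and upper-quartile factors moved it by 0.125 at 24 h against untreated and -0.123 at 48 h against 24 h. At 48 h against 24 h, miR-99a-5p also turned to 0.088 with no filter, 0.030 with limma-voom, 0.016 with the replicate block, 0.050 with those groups alone and 0.11 without library 2 of 48 h and untreated. At 48 h against untreated, miR-100-5p turned to 0.012 with upper-quartile factors and 0.0087 without those libraries. Leaving out each library in turn crossed 0 as follows. At 48 h against untreated, log2 fold changes ran from -0.15 to 0.72 for miR-10b-5p, -0.10 to 0.25 for miR-99a-5p, -0.069 to 0.44 for miR-99b-5p and -0.51 to 0.23 for miR-100-5p, and the share difference from -0.786 to 1.27 percentage points. Log2 ratio differences there ran from -0.28 to 0.060 for miR-99a-5p to miR-99b-5p, -0.0061 to 0.44 for miR-99a-5p to miR-100-5p, -0.16 to 0.41 for miR-125a-5p to miR-125b-5p and -0.61 to 0.062 for miR-99a-5p to let-7c-5p. At 24 h against untreated, log2 fold changes ran from -0.22 to 0.27 for miR-99a-5p and -0.25 to 0.97 for miR-100-5p, and the share difference from -0.721 to 1.89 points. Log2 ratio differences there ran from -0.65 to 0.030 for miR-99a-5p to miR-100-5p, -0.050 to 0.52 for miR-125a-5p to miR-125b-5p, -0.15 to 0.34 for miR-99b-5p to miR-125a-5p and -0.62 to 0.47 for miR-100-5p to miR-125b-5p. At 48 h against 24 h, log2 fold changes ran from -0.56 to 0.19 for miR-10a-5p, -0.16 to 0.28 for miR-99a-5p and -1.06 to 0.10 for miR-100-5p, the share difference from -1.50 to 1.11 points, and the log2 ratio difference of miR-125a-5p to miR-125b-5p from -0.38 to 0.15. The causes were not tested. With 3 libraries a group and a median SE of 0.823 to 0.825 for a log2 fold change over all tested miRNAs, small differences could not be detected. Counting error is widest for miR-10b-5p, with 21 to 79 counts per library.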

Other observations

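The deposited tables also hold a row for the mir-10 precursor family of Rfam, the catalogue of RNA families, apart from the mature miRNAs. Its level was 125.75, 111.61 and 153.44 RPM of all counted reads at 48 h, 109.92, 108.49 and 256 RPM at 24 h, and 81.95, 98.16 and 134.69 RPM in untreated vesicles. The groups overlapped, and 24 h library 3 was the highest of the 9. On the same scale it was also the highest for miR-10a-5p, miR-10b-5p, miR-99b-5p and miR-100-5p, but not for the other members. The members' mature counts exceeded this row by 136-fold in that library and by 242-fold to 326-fold in the others. Which reads the row holds beyond the mature strands is not stated in the files.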
